A study of Mus musculus with 17 samples.

Results

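The RIKEN clones of the 1700 series are mouse transcripts known first from cDNA clones, and many still carry the clone number as their gene name. The members described here are the rows of the deposited ERCC-calibrated table that are named for such a clone (1700, 3 digits, a letter, 2 digits and Rik) and whose mean over the 17 libraries was at least 10 recovered reads. They numbered 251 of 390 rows with a 1700 name, in a table of 23282 genes of which 13530 had a mean of at least 10 reads. The limit used the measured reads of all libraries, so that abundance itself is not a result. Just above it stood 1700084F23Rik and 1700030F04Rik, with means of 10.6 and 10.5 reads, and just below it 1700009C05Rik and 1700026F02Rik, with 9.82 and 9.65. Of the 139 rows below the limit, 2 had no read in any library.

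The clone number records a cDNA library, not a function. The series is known for its many transcripts from testis, where meiotic and haploid germ cells transcribe a large number of genes that are silent in other tissues. Several of its members now have names of their own, among them cilia and flagella associated proteins (Cfap), testis expressed genes (Tex), histone variants, the CatSper channel subunit Catsperz and Majin, which holds telomeres to the nuclear envelope in meiosis. NAT10 is the acetyltransferase that makes N4-acetylcytidine (ac4C) in RNA.

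Cells of 3 stages were sorted by Hoechst staining and FACS, namely spermatogonia (SPG), spermatocytes in pre-leptotene (PreL) and those in leptotene or zygotene (LZ). They came from mice of the C57BL/6 strain (C57BL/6J in the study's methods) and were sequenced with Smart-seq2. The WT groups held 3, 3 and 2 libraries in SPG, PreL and LZ, and the Nat10-SKO groups held 3 in each stage. SKO mice are Nat10 fl/- with Stra8-GFPCre, which removes exons 4 and 5 of Nat10 in germ cells before meiosis, so that cells sorted as SPG can precede or follow the excision and the remaining exons are still counted. No age is given in the labels, and nothing in them says that libraries of a group came from separate animals, so p-values measure the spread between these libraries only. Recovered reads numbered 5812380 to 7609420 per library in SKO LZ and 9885136 to 13820953 in the other groups. Nat10 had 248 to 485 reads in the WT libraries, 114 to 269 in SKO SPG and PreL and 45 to 61 in SKO LZ. Levels are given below in RPM (recovered reads of a gene per 1000000 recovered reads of the library), and differences as log2 fold changes on the log2(rescaled value + 10) scale tested with limma, where a call needed a Benjamini-Hochberg adjusted p under 0.05 together with a change of more than 1 on the log2 scale in either direction. In bulk samples such as these, fewer cells of a type and less RNA per cell cannot be told apart.

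Of the 251 members, 156 are annotated as protein coding in GENCODE for GRCm38 (mm10), 80 as non-coding RNA and 9 as pseudogenes, and 6 were matched to no GENCODE gene. They lie on 20 chromosomes, with 9 on the X. By RefSeq, 87 had a present symbol that is no clone name. The exons of 66 members overlap another gene, on the opposite strand only for 55 of them. Smart-seq2 does not mark the strand, so reads of such a member and its partner cannot be told apart.

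The upstream sequences of 7 members are shown because these members had the largest decreases and the only increases in SKO LZ. Each is the 250 bases before the RefSeq start (GRCm38.p6), written 5′ to 3′ on the strand of the gene, with capitals for the letters that match a motif searched. The first 3 were lower in SKO LZ and the other 4 were higher.
1700029F12Rik (chr13:97034363-97034612, minus strand): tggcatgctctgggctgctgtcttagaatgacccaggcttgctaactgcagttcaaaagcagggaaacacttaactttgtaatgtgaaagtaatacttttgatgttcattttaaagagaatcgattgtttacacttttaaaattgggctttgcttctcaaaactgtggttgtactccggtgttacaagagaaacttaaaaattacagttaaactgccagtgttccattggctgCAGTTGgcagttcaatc
1700074P13Rik (chr6:40940558-40940807, minus strand): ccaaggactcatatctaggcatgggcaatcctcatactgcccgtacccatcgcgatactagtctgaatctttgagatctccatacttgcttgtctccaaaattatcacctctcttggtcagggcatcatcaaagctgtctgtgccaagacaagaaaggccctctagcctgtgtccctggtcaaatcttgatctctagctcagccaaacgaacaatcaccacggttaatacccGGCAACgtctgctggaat
1700011E24Rik (chr17:87427742-87427991, minus strand): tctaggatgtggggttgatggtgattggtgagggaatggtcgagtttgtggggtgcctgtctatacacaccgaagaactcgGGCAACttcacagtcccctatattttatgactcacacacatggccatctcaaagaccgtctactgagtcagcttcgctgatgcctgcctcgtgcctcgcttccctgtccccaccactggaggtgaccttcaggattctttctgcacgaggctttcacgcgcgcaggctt
1700007J10Rik (chr11:59740155-59740404, minus strand): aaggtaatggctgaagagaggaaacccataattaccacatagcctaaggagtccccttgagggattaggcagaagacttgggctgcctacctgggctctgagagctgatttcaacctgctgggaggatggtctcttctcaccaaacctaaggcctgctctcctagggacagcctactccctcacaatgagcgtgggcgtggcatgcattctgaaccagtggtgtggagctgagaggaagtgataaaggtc
1700094D03Rik (chr3:90062558-90062807, plus strand): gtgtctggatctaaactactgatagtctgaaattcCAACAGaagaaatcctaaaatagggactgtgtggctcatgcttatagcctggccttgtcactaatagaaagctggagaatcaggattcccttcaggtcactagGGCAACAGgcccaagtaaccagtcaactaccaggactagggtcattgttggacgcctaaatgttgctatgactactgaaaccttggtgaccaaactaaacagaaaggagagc
1700034H15Rik (chr1:191907528-191907777, minus strand): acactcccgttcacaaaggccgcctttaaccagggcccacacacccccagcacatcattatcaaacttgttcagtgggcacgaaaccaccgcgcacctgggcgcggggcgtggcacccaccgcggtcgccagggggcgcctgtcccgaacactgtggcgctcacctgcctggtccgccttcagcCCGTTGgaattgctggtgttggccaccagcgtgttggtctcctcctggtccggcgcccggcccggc
1700016D06Rik (chr8:11678750-11678999, minus strand): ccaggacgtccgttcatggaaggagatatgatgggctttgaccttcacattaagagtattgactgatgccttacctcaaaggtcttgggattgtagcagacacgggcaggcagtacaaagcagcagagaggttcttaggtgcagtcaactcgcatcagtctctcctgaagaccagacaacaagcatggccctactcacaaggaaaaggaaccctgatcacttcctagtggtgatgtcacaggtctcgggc
The motifs were the core CAACNG bound by MYB proteins (its form CAACTG is also an E-box of the wider kind CANNTG), the RFX motif GTTGCC, 1 arm of the longer site of RFX proteins, the full cyclic AMP element TGACGTCA, the STRA8-MEIOSIN motif CNCCTCAG and the E-box CACGTG, each on both strands. Promoters of 250 bases before to 50 after the start were found for 199 of the 251 members, 238 promoters in all. The MYB core stood in 112 of these (47.1%), against 35.0% of all 32851 promoters, and the RFX motif in 45 (18.9%), against 12.5%. Among members called lower in SKO LZ the MYB core was in 49.8% of 201 promoters, and among the members not called lower in 32.4% of 37. The other motifs were found in 2 (full cyclic AMP element), 24 (STRA8-MEIOSIN) and 20 (E-box) of the 238, or 0.840%, 10.1% and 8.40%, against 1.79%, 7.94% and 7.15% of all promoters. These are counts of letters in a window, with no test.

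In WT the members were low in SPG, higher in PreL and highest in LZ, and in SKO their median level stayed low in every stage. The median level over the 251 members was 3.60, 2.16 and 2.83 RPM in the libraries of WT SPG, 5.41, 7.09 and 4.01 in WT PreL, and 19.3 and 18.2 in WT LZ. In SKO it was 0.648, 0 and 0.168 RPM in SPG, 0.356, 0.444 and 0.267 in PreL, and 0.172, 0.263 and 0.289 in LZ. The limit on reads takes part in these medians, since 151 of the 251 members had a mean below 10 reads over the SKO libraries and passed through WT. For the other 100 the median was 8.82, 5.48 and 8.69 RPM in WT SPG and 7.54, 4.15 and 3.82 in SKO SPG, where the genotypes overlapped. It was 12.1, 15.9 and 8.53 RPM in WT PreL and 4.81, 5.24 and 4.53 in SKO PreL, and 35.1 and 40.6 in WT LZ and 4.64, 5.98 and 5.56 in SKO LZ, with no overlap. The number of members without a read was 0 in both WT LZ libraries and 98 to 108 in the SKO LZ libraries, which held fewer reads. The limit on reads takes part here too, since 54 members reached it only through the WT LZ libraries. In the LZ comparison 74 of 251 members had a genotype group without a read, as had 477 of all 13724 genes tested. Over all 9 SKO libraries, 11 members had no read and 62 had at most 3 reads in each.

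The summed level, to which abundant members contribute most, did not follow the median. It was 5222 ± 150.4 RPM in WT and 5301 ± 130.1 in SKO for SPG (SD, n = 3 each), and 6770 ± 811 in WT PreL and 5257 ± 439 in SKO PreL (n = 3 each). In LZ the sums were 12754 and 19444 RPM in WT and 4901 ± 95.1 in SKO (n = 3). The ratio of SKO to WT was thus 1.02 in SPG, 0.776 in PreL and 0.304 in LZ. On the ERCC-calibrated scale, where each library is multiplied by the authors' factor for spike-in and cell input, the ratio was 0.835 in SPG and 1.21 in PreL, so that the PreL ratio lay on the other side of 1.

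**Figure D1:**
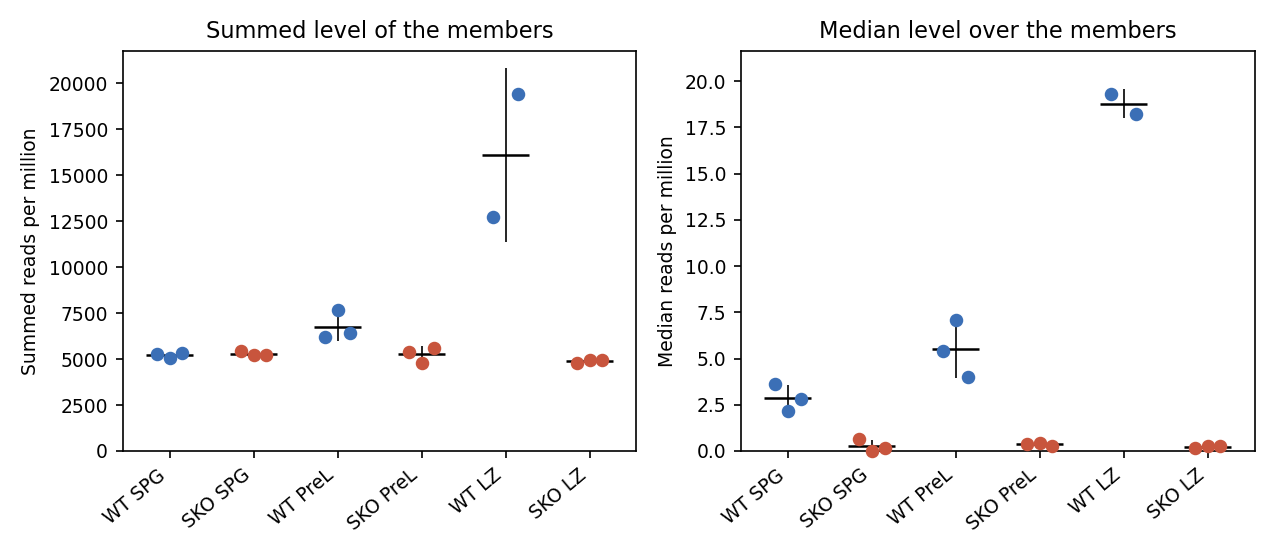
Left, the summed level of the 251 members in each library in RPM; right, the median level over the members; blue points are WT and red points SKO libraries, horizontal lines are group means and vertical lines the SD. The sums of SPG overlap between genotypes, whereas the medians of the SKO libraries are at most 0.648 and those of the WT libraries at least 2.16 RPM, with 151 members below a mean of 10 reads over the SKO libraries.

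Per kilobase of exon, Tex30 was among the 2 highest members in every group. Tex30 (1700029F09Rik), a testis expressed gene, was at 646 RPM per kilobase in WT SPG, 744 in WT PreL and 568 in WT LZ, and at 673, 705 and 409.5 in the SKO stages. The X-linked 1700013H16Rik was at 773, 668 and 325 RPM per kilobase in the WT stages and at 1146, 988 and 362 in the SKO stages. The non-coding 1700018B24Rik stood at 331, 258 and 466 in WT and at 199, 167 and 133 in SKO. In WT LZ 1700029F12Rik was second only to Tex30, with 509.6 RPM per kilobase, and it was at 0 in SKO LZ. In SKO LZ the leading member was instead 1700007J10Rik, with 1240.1 against 127 RPM per kilobase in WT LZ.

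Along the WT course, members rose and hardly any fell. From SPG to PreL, 31 of 230 tested members were called higher and 0 lower, with 2.54% of all 12657 tested genes called higher and 1.21% lower. At an unadjusted p under 0.05 limma gave 5 lower members, and edgeR and DESeq2 called 0 lower. Without WT SPG replicate 3 the number called higher was 7. From PreL to LZ, 133 of the 251 members were called higher and 7 lower, against 18.8% and 7.8% of 13759 genes. Of the 54 members that reached the limit on reads only through the WT LZ libraries 38 were called higher, and of the other 197 members 95. The members' median log2 fold change was 1.95 with both WT LZ libraries. With 1 library left in that group it was 1.66 (without replicate 3) or 2.03 (without replicate 2). Within WT, 218 of the 251 members (86.9%) had their highest mean RPM in LZ, against 49.0% of all 13530 genes. The limit on reads takes part in this count too, since the 54 members are among the 251. On the ERCC-calibrated values 238 members were called higher from PreL to LZ and 0 lower, where 79.9% of all genes were called higher and 0.109% lower.

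The members that rose most in WT included coding and non-coding ones. From SPG to PreL, 16.1% of 149 coding and 5.97% of 67 non-coding members were called higher. Over all such genes tested the shares were 2.45% and 4.51%. From PreL to LZ they were 53.8% and 52.5% of the members, against 18.2% and 30.1% of all such genes. 1700028K03Rik, the gene of SPO16, which acts in meiotic crossing over, shares exon positions with Gm42669 and Glmn. It was at 6.44, 2.33 and 1.66 RPM in WT SPG and at 26.6, 25.3 and 23.0 in WT PreL, which limma put at 2.83 on the log2 scale (SE 0.40, adjusted p = 0.0047). It then reached 68.4 and 71.5 RPM in WT LZ. 1700102P08Rik rose from 9.74, 2.59 and 6.23 RPM in SPG to 35.6, 44.4 and 17.9 in PreL and to 279 and 367 in LZ. From PreL to LZ, Cfap206 (1700003M02Rik), named for cilia and flagella, rose from 5.60, 9.83 and 3.64 RPM to 97.8 and 222, which limma put at 4.40 on the log2 scale (SE 0.51, adjusted p = 0.0025). The non-coding 1700047G03Rik was at 0.467, 2.17 and 0 RPM in WT PreL and at 19.8 and 48.7 in WT LZ (log2 fold change 4.91). For these members the groups of the stages compared did not overlap.

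The 7 members that fell from PreL to LZ in WT divided by what they did in SKO. Of these, 1700027A15Rik and 1700016P04Rik were called lower in SKO in every stage. The other 5 were 1700007J10Rik, 1700094D03Rik, 1700034H15Rik, 1700013H16Rik and Oip5os1 (1700020I14Rik), of which the first 3 were higher in SKO LZ. Oip5os1 is the long non-coding RNA Cyrano, which binds the microRNA miR-7. It was at 420.3, 536 and 609.5 RPM in WT PreL and at 173 and 145 in WT LZ, which limma put at -1.86 on the log2 scale (SE 0.23, adjusted p = 0.0025). Without rescaling, on the ERCC-calibrated values, none of the 7 was called lower, and the log2 fold change of 1700094D03Rik turned from -1.61 to 0.22.

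In LZ the members were lower in SKO than in WT, with few exceptions. All 251 members were tested, 209 were called lower and 4 higher, where 25.8% of all 13724 tested genes were called lower and 13.4% higher. The libraries did not overlap between genotypes for 220 members that were lower and 9 that were higher, against 39.8% and 30.3% of all genes. The limit on reads takes part in this count: without the WT LZ libraries, 54 of the 251 members would have had a mean below 10 reads, and 52 of these 54 were among the members called lower. Of the 100 members with a mean of at least 10 reads over the SKO libraries alone, 62 were lower and 4 higher in SKO LZ. The median log2 fold change of the 251 members was -4.74, and -3.94 with the 74 members that had no read in SKO LZ set to their bound against 3 reads per library. The median of all genes tested was -0.13. Leaving out each SKO LZ library in turn gave 202 to 205 members called lower and 4 to 5 called higher. Leaving out a WT LZ library leaves 1 in that group. The members' median log2 fold change was then -4.86 (without replicate 2) or -4.45 (without replicate 3).

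**Figure D2:**
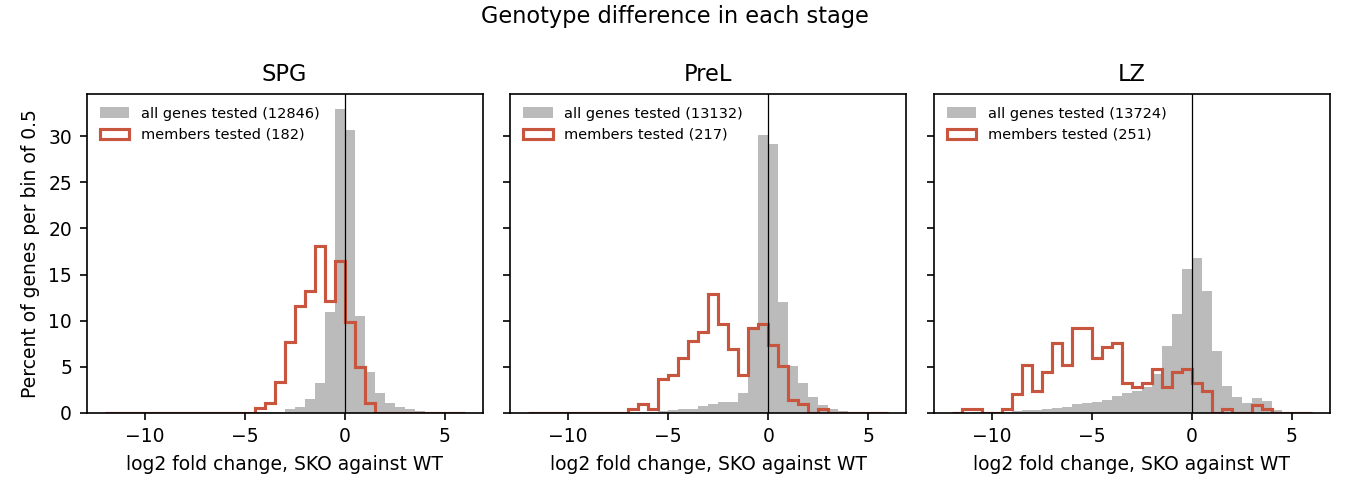
Percent of genes in bins of 0.5 of the log2 fold change of SKO against WT, in SPG, PreL and LZ, for all genes tested (grey) and for the members tested (red line). The members' median is -1.17 in SPG, -2.24 in PreL and -4.74 in LZ, whereas all genes centre on 0.00, 0.04 and -0.13.

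The largest decreases were in members that were abundant in the WT LZ libraries, against which the difference itself is measured. 1700074P13Rik, a coding gene on chromosome 6 (40920437 to 40940557, minus strand), had 243 and 479.6 RPM in WT LZ and no read in the 3 SKO LZ libraries. It was therefore at least 649-fold lower against 3 reads per library, and its log2 fold change was -10.64 (SE 0.49, limma adjusted p = 5.2e-05). In PreL it was at 43.9, 70.2 and 29.6 RPM in WT and at 0.178, 0.0887 and 0 in SKO. 1700029F12Rik, on chromosome 13 (97021864 to 97034362, minus strand), had 309 and 853 RPM in WT LZ and no read in SKO LZ, at least 1065-fold lower. The WT and SKO libraries of PreL and LZ did not overlap for either gene.

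Stpg4 (1700011E24Rik), a gene with sperm-tail PG-rich repeats, was at 145 and 316 RPM in WT LZ and at 0, 0.263 and 0.144 in SKO LZ, which limma put at -9.23 on the log2 scale (SE 0.60, adjusted p = 5.2e-05). 1700010B08Rik was at 178 and 427 RPM in WT LZ and at 0, 0.788 and 0.433 in SKO LZ, a log2 fold change of -8.90. 1700051A21Rik, whose exons overlap Slc13a5 on the opposite strand, had 56.1 and 167 RPM in WT LZ and no read in SKO LZ, at least 206-fold lower. In all of these WT LZ replicate 3 lay above replicate 2. Over the 251 members replicate 3 was above replicate 2 for 147, with a median ratio of 1.18, against 0.866 over all 13530 genes, and the 10 members with the largest excess held 46.8% of the difference of 6691 RPM between the sums.

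Of the 87 members with a name of their own, 75 (86.2%) were called lower in SKO LZ and 0 higher. Of the other 164 members, 134 (81.7%) were lower and 4 higher, against 25.8% and 13.4% of all genes tested. All 6 members named Cfap were lower in SKO LZ, from a log2 fold change of -5.18 for Cfap157 (1700019L03Rik) to -8.50 for Cfap206. Of 8 members named Tex, 7 were lower, between -4.33 for Tex45 (1700019B03Rik) and -6.10 for Tex35 (1700057K13Rik), and Tex30 was at -0.11 (adjusted p = 0.68 from limma). Of 3 histone variants, H2bl1 (1700024P04Rik) was at -7.01 and H2ap (1700054O13Rik) at -5.69, and the X-linked H2bfm (1700014N06Rik) was at 0.97 and not called. Catsperz (1700019N12Rik), a subunit of the sperm calcium channel, was at 266 and 542 RPM in WT LZ and at 0.688, 0.526 and 0.866 in SKO LZ, which limma put at -8.43 on the log2 scale (SE 0.47, adjusted p = 5.2e-05).

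Among the other abundant named members, Fam229b (1700025K23Rik) was at -6.02, Shcbp1l (1700012A16Rik), a spindle protein of male meiosis, at -3.86, Armt1 (1700052N19Rik), a carboxyl methyltransferase, at -2.76 and Mtres1 (1700021F05Rik), a mitochondrial RNA-binding protein, at -1.09 on the log2 scale. Ccdc172 (1700011F14Rik) was at -0.75 and did not pass the fold threshold (adjusted p = 0.032 from limma). Majin (1700123I01Rik) was at 34.3 and 42.1 RPM in WT LZ and at 4.13, 7.75 and 8.81 in SKO LZ, which limma put at -2.13 on the log2 scale (SE 0.37, adjusted p = 0.0025). Its levels in PreL, 40.4, 26.1 and 34.2 RPM in WT and 37.5, 27.0 and 44.3 in SKO, overlapped. Majin is named here because of its known role and was chosen after its values were seen.

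**Figure D3:**
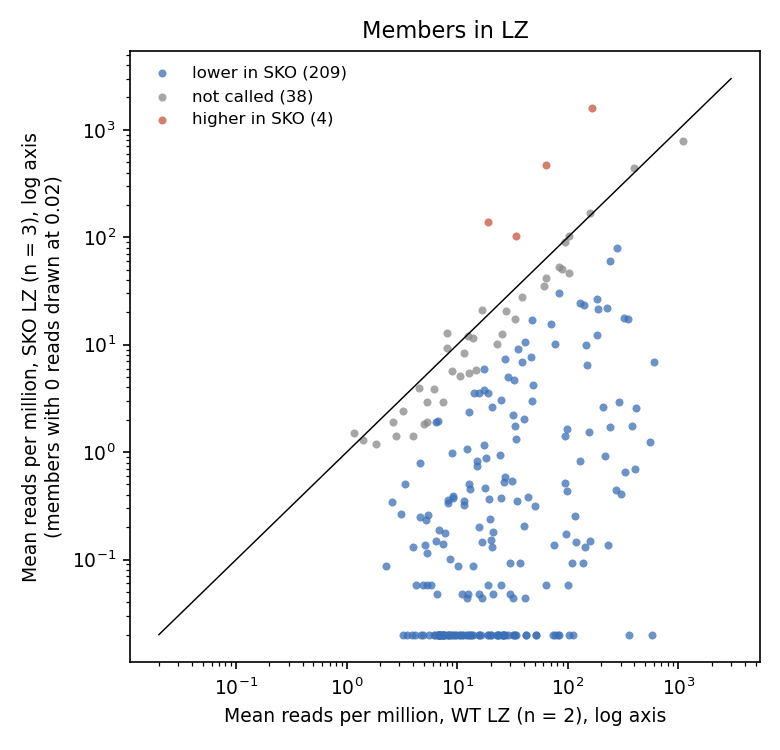
Mean RPM of the 251 members in SKO LZ (n = 3) against WT LZ (n = 2), both on log axes, with the line of equal levels. The 209 members called lower spread over the space below the line, with 74 members without a read in SKO LZ along the bottom, the 38 members not called lie on either side of the line, and the 4 called higher lie above it.

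The 4 members higher in SKO LZ were 1700007J10Rik, 1700094D03Rik, 1700034H15Rik and 1700016D06Rik. 1700007J10Rik had 161 and 169 RPM in WT LZ and 1829, 1386 and 1614 in SKO LZ, which limma put at 3.65 on the log2 scale (SE 0.25, adjusted p = 5.6e-05). In PreL it was at 457, 639 and 647 RPM in WT and at 521, 496 and 593 in SKO, where the groups overlapped. It is a processed transcript of chromosome 11 (59725917 to 59740154, minus strand) whose exons overlap Mprip on the opposite strand. Mprip itself was at a log2 fold change of -0.66 in LZ, below the fold threshold.

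1700094D03Rik, a coding gene of chromosome 3 in RefSeq (90062808 to 90068347), had 56.5 and 69.7 RPM in WT LZ and 562, 413 and 451 in SKO LZ, which limma put at 3.28 on the log2 scale (SE 0.28, adjusted p = 9.3e-05). 1700034H15Rik was at 15.6 and 22.2 RPM in WT LZ and at 165, 125 and 125 in SKO LZ (log2 fold change 3.24, standard error 0.31). It is annotated as antisense on chromosome 1 (191886130 to 191907527, minus strand) to Slc30a1, a zinc exporter, which was at 1.07 in the same comparison. 1700016D06Rik, a coding gene of chromosome 8, was at 26.2 and 41.1 RPM in WT LZ and at 123, 84.4 and 100.5 in SKO LZ, which limma put at 1.999 on the log2 scale (SE 0.35, adjusted p = 0.0025). For each of the 4 the LZ groups did not overlap, and none of the 4 was called in SPG or PreL.

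**Figure D4:**
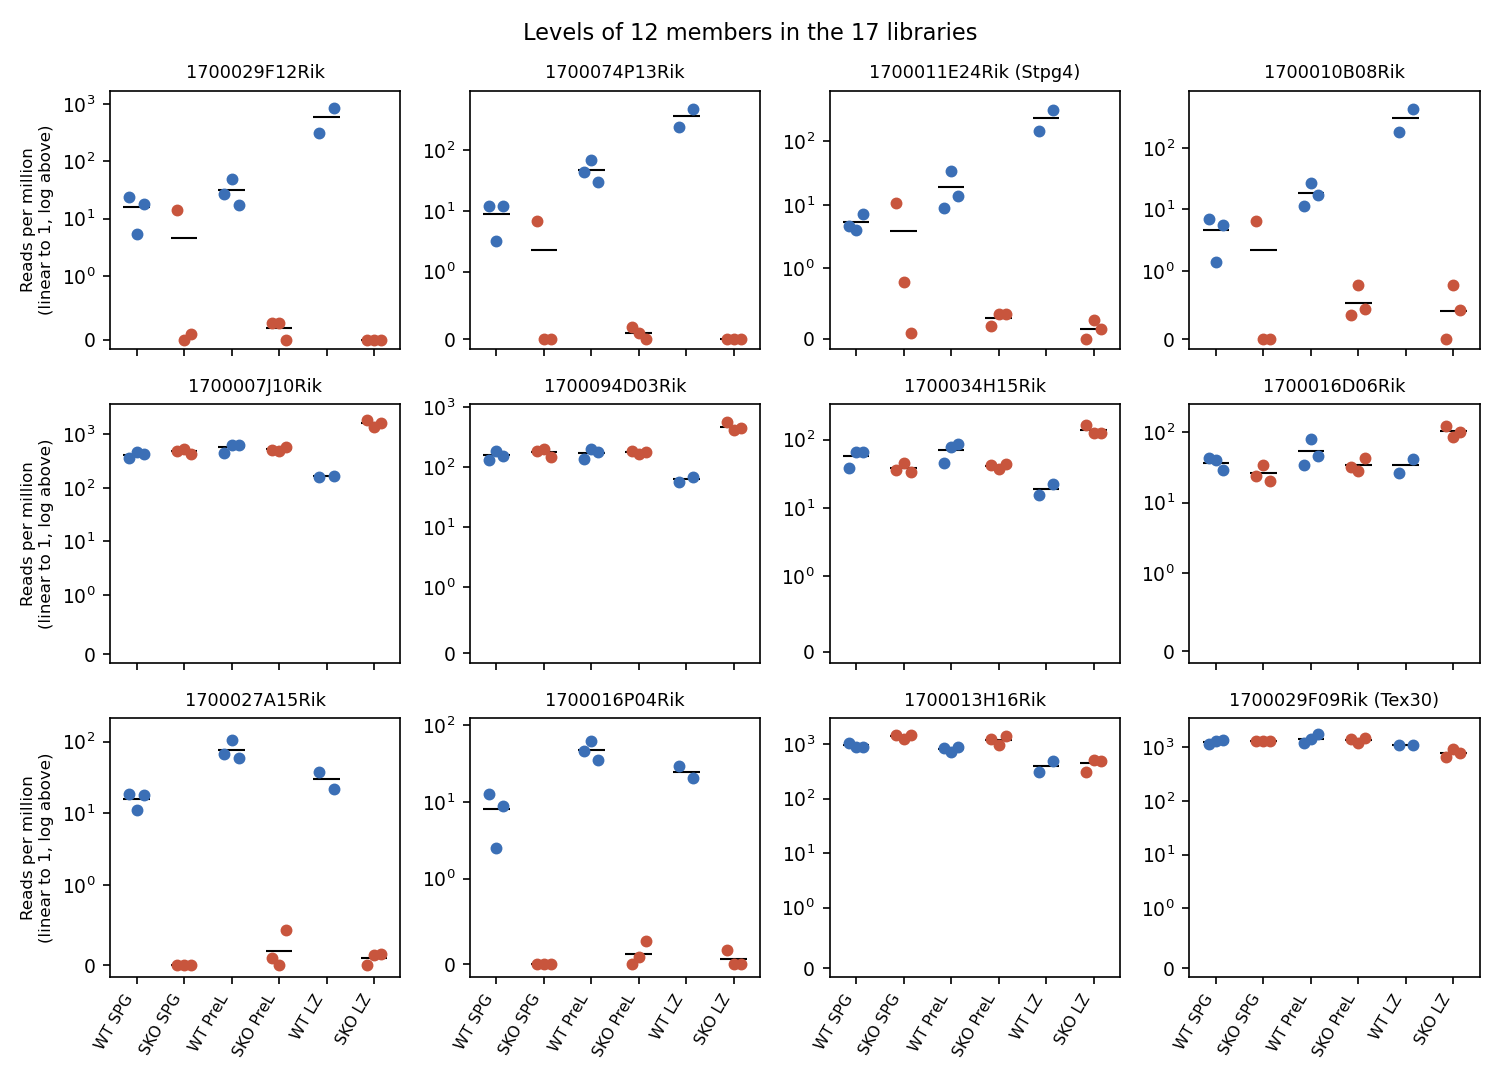
Levels of 12 members in the 17 libraries in RPM, on axes that are linear from 0 to 1 and logarithmic above; blue points are WT and red points SKO libraries, and lines are group means. The upper row holds the 4 largest decreases in SKO LZ, the middle row the 4 increases, and the lower row 2 members that are highest in WT PreL and 2 members that were called in no stage.

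In PreL, 125 of the 217 tested members were called lower in SKO and 1 higher, where 5.83% of all 13132 genes were called lower and 5.32% higher. No overlap between genotypes was seen for 145 members that were lower and 13 that were higher, against 20% and 17.4% of all genes. The median log2 fold change of the tested members was -2.24 (-2.37 with members at 0 in a group set to their bound), against 0.04 over all genes. On the ERCC-calibrated values the split was 119 lower and 20 higher, against 4.45% and 26.3% of all genes. All 125 were also called lower in LZ, where 209 of the 251 members were. A further 51 of the 209 members lower in LZ were tested and not called in PreL, and 33 did not reach the 10 reads to be tested there. Of the 100 members with a mean of at least 10 reads over the SKO libraries, 27 were lower and 1 higher in PreL.

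The largest decrease in PreL was that of 1700027A15Rik, which was at 66.9, 106 and 59.0 RPM in WT and at 0.0891, 0 and 0.444 in SKO, which limma put at -6.84 on the log2 scale (SE 0.36, adjusted p = 1.4e-05). It lies on chromosome 1 (72984844 to 73025507, plus strand), and its exons overlap those of Tnp1, the gene of transition protein 1 of spermatids, on the opposite strand. Tnp1 was at 127, 165 and 109 RPM in WT PreL and at 1.60, 3.19 and 1.69 in SKO PreL, a log2 fold change of -5.74. 1700016P04Rik, a non-coding RNA of chromosome 6 (13413337 to 13415996, plus strand) without such an overlap, was at 45.6, 60.8 and 34.9 RPM in WT PreL and at 0, 0.0887 and 0.266 in SKO PreL (log2 fold change -6.25, standard error 0.35). The pseudogene 1700031M16Rik was at 30.9, 52.3 and 30.5 RPM in WT PreL and at 0.178, 0 and 0.178 in SKO PreL, at -5.92. In SKO SPG none of the 3 had a read, whereas WT SPG held 11.2 to 18.8, 2.50 to 12.7 and 4.14 to 12.3 RPM.

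The 1 member called higher in PreL was the X-linked 1700080O16Rik, at 13.7, 6.71 and 6.71 RPM in WT and at 19.1, 18.7 and 27.0 in SKO, which limma put at 1.21 on the log2 scale (SE 0.31, adjusted p = 0.029). The groups did not overlap, but the call was lost when any library other than WT PreL replicate 1 was left out, with adjusted p-values of 0.0511 to 0.0987 from limma. In LZ it was at 17.4 and 16.02 RPM in WT and at 18.6, 22.9 and 21.7 in SKO and was not called.

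In SPG, 43 of the 182 tested members were called lower in SKO and 0 higher (4 at an unadjusted p under 0.05), where 2.06% of all 12846 genes were called lower and 3.95% higher. The genotypes did not overlap for 71 members that were lower and 3 that were higher, against 14.4% and 15.2% of all genes. The median log2 fold change of the tested members was -1.17 (-1.18 with members at 0 in a group set to their bound), against 0.00 over all genes. Of the 100 members with a mean of at least 10 reads over the SKO libraries 95 were tested in SPG and 7 called lower. Their median difference was -0.37 on the log2 scale. Of the other 151 members 87 were tested and 36 called lower. At a mean of at least 50 reads over the SPG libraries, 9 of 70 members were lower. Without the fold threshold 3 members were higher, and edgeR and DESeq2 called 33 and 53 members lower and 0 higher. Without WT SPG replicate 1 the number called lower was 22, without WT SPG replicate 3 it was 26 and without SKO SPG replicate 3 it was 27. Of the 43, 40 were lower in all 3 stages. The only one with a mean of at least 100 reads over the SPG libraries was Tsacc (1700021C14Rik), a co-chaperone of a sperm kinase whose exons overlap Gm38392, with 24.5, 19.0 and 19.8 RPM in WT and 9.62, 6.78 and 12.3 in SKO, which limma put at -1.12 on the log2 scale (SE 0.31, adjusted p = 0.033). The groups did not overlap. That call was lost when any library other than SKO SPG replicate 4 was left out.

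SKO SPG replicate 1 lay above the other SKO SPG libraries in some of the members. 1700029F12Rik had 13.9 RPM in replicate 1 and 0 and 0.0839 in replicates 3 and 4, and 1700074P13Rik had 6.84 RPM in replicate 1 and 0 in the others. Replicate 1 was the highest of the 3 for 95 members, replicate 3 for 54 and replicate 4 for 68. The same count over all genes was not made. Members without a read numbered 91, 133 and 83 in replicates 1, 3 and 4. Without replicate 1, 49 members were called lower.

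Late spermatocyte markers rose over the WT stages, as the members' median did, whereas spermatid markers overlapped between WT PreL and WT LZ. By their group means both lists were lower in SKO in each stage. The summed level of 8 late spermatocyte markers (among them Ldhc, Pgk2 and Piwil1) was 137 to 212 RPM in WT SPG, 322 to 1096 in WT PreL and 3406 to 5979 in WT LZ, and 25.5 to 138, 60.5 to 82.1 and 111 to 124 in the SKO stages. In SKO SPG it was 138 RPM in replicate 1 and 25.5 and 36.2 in replicates 3 and 4. The 8 spermatid markers (among them Prm1, Prm2 and Tnp1) summed to 109 to 309, 566 to 963 and 596 to 1004 RPM in the WT stages and to 4.35 to 14.2 RPM in all SKO libraries, where Acrv1 had no read in SPG and LZ and Odf1 none in LZ. All 8 spermatid and all 8 late spermatocyte markers were called lower in SKO LZ. The early meiotic markers, of which the table holds 7 of 8, summed to 2248 to 2489 RPM in WT SPG and to 3415 to 3648 in SKO SPG. In PreL they were at 3472 to 4276 RPM in WT and 5145 to 7124 in SKO. In LZ the sums were 3785 to 4200 RPM in WT and 2931 to 4442 in SKO. Of 7 tested, 1 was called higher in PreL, and none was called in SPG or LZ.

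The spermatogonial markers, 8 genes, summed to 856 to 903 RPM in WT SPG and 1111 to 1186 in SKO SPG. In PreL they were at 632 to 673 RPM in WT and 708 to 823 in SKO, and in LZ at 341 to 785 and 693 to 738. Of the 8, 1, 1 and 3 were called higher in SPG, PreL and LZ. The 6 Leydig cell markers were at 5.61 to 56.7 RPM in WT and at 39.9 to 449 in SKO, with 5, 6 and 4 called higher in SPG, PreL and LZ. The 6 Sertoli cell markers summed to 56.8 to 65.0 RPM in WT PreL and to 645, 838 and 55.6 in SKO PreL, where 3 of 5 tested were called higher. In LZ they were at 1164 RPM in WT replicate 2 and 229 in WT replicate 3, and at 378 to 533 in SKO, and none was called. The 6 macrophage markers were at 0.941 to 19.2 RPM in WT and at 5.51 to 121 in SKO, with 4, 1 and 3 called higher in SPG, PreL and LZ. The 4 peritubular myoid markers were at 0.777 to 15.4 RPM in WT and 6.04 to 64.5 in SKO, with 2 of 3 tested called higher in SPG. The part of such cells in the members' levels was not tested.

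Whether more members than other genes were lower by the interaction of genotype and stage depended on the test and the scale. In the interaction term fitted over all 17 libraries, which asks whether the difference between SKO and WT was the same in LZ as in PreL, 113 of the 251 members were lower and 5 higher in LZ at an adjusted p under 0.05, against 23.1% and 15.1% of 13530 genes. The 5 were the 4 members higher in SKO LZ and Oip5os1. The limit on reads takes part in the count of 113. Of the 54 members that reached the limit only through the WT LZ libraries 37 were lower (68.5%). Of the other 197 members 76 were lower (38.6%). On the recovered reads edgeR called 32 members lower (12.7%, against 15.8% of all genes) and DESeq2 45 (17.9%, against 20.1%), so that in both the members' share was below that of all genes. With a pseudocount of 1 limma called 48 (19.1%, against 18.6%), and on the ERCC-calibrated values 192 (76.5%, against 48.6%). The members' median difference was -1.67 with all libraries. Without WT LZ replicate 3, which leaves 1 library in that group, it was -1.34 over 233 tested members. Majin was among the 113, with a log2 fold change of 0.04 in PreL and -2.13 in LZ, and a difference of -2.11 (SE 0.49, limma adjusted p = 0.0023).

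Along the stages within SKO, 100 and 95 of the 251 members reached the limit on reads and were tested. From SPG to PreL, 3 of the 100 tested members were called higher and 0 lower (8 at an unadjusted p under 0.05, and 0 in edgeR and 2 in DESeq2), where 1.63% of all 12882 genes were higher and 0.955% lower. From PreL to LZ, 14 of 95 tested members (14.7%) were higher and 5 (5.26%) lower, where 10.6% of 12477 genes were higher and 6.93% lower. On the ERCC-calibrated values the counts were 44 higher and 0 lower for the first step, and 42 higher and 2 lower for the second, where 43.9% and 35.3% of all genes were called higher. The 3 that rose from SPG to PreL were 1700028K03Rik, the gene of SPO16, and the X-linked neighbours 1700011M02Rik and 1700018G05Rik, which were named after their values were seen.

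1700011M02Rik was at 0.462, 2.93 and 0.839 RPM in SKO SPG, at 74.7, 70.6 and 5.77 in SKO PreL and at 39.6, 59.1 and 58.9 in SKO LZ. In WT it was at 3.76, 2.68 and 1.99 RPM in SPG, 11.6, 9.83 and 6.25 in PreL, and 135 and 32.3 in LZ. 1700018G05Rik ran beside it, with 55.4, 43.8 and 7.46 RPM in SKO PreL and 96.6 and 26.1 in WT LZ. In both, WT LZ replicate 2 lay above replicate 3, the reverse of the leading members, and SKO PreL replicate 3 lay below the others. They lie from 102908905 to 102909651 and from 102928372 to 102929094 of chromosome X. How far the counting could split reads between these short neighbours was not tested. The summed Sertoli cell markers also lay low in SKO PreL replicate 3 (645, 838 and 55.6 RPM). In WT LZ replicates 2 and 3 they were at 1164 and 229 RPM. The Leydig and peritubular myoid marker sums differed in the same directions between these replicates. The part of such cells in the levels of these neighbours was not tested.

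Of 9 members placed on the X by GENCODE, 3 were called lower and 0 higher in SKO LZ, and of 236 placed on autosomes 203 lower and 3 higher. The 6 members matched to no GENCODE gene held 3 called lower and 1 called higher. Over all tested genes, 9.02% of X-linked and 26.4% of autosomal genes were called lower, and 26.3% and 12.8% were called higher. The difference between X-linked and autosomal members was not tested. The 3 X-linked members called lower were 1700008I05Rik (Tcp11x2), 1700010D01Rik and 1700031F05Rik. 1700013H16Rik was not called in any stage, with 304 and 493 RPM in WT LZ and 312, 517 and 499 in SKO LZ. Tslrn1 (1700019B21Rik), a testis-specific long non-coding RNA, was at 121 and 83.6 RPM in WT LZ and at 71.9, 113 and 121 in SKO LZ.

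Of the 176 members tested in all 3 stages, 31 were called in none. The most abundant were Tex30, 1700013H16Rik, Oip5os1 and Tslrn1. Tex30 was at 1120.4, 1264 and 1349 RPM in WT SPG and at 1277, 1295 and 1314 in SKO SPG, and in LZ at 1106 and 1084 in WT and 655, 931 and 779.8 in SKO. In RPM its LZ groups thus did not overlap, whereas its log2 fold change after rescaling was -0.11, since size factors and totals scale the LZ libraries differently. Kansl1 (1700081L11Rik), a subunit of the chromatin-acetylating NSL complex, had log2 fold changes of -0.37, 0.29 and 0.31 in SPG, PreL and LZ. A p that misses the threshold does not show that such members did not differ.

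Coding members were called lower in SKO LZ in 136 of 156 cases (87.2%), non-coding members in 61 of 80 (76.2%) and pseudogenes in 9 of 9. Over all tested genes the shares were 24.6% of coding genes, 47.1% of non-coding genes and 41.7% of 120 pseudogenes. Members whose exons overlap another gene were lower in 50 of 66 cases, and matched members without such an overlap in 156 of 179. In PreL the numbers were 14 of 51 and 109 of 160 tested members.

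Other RIKEN clone names gave a graded picture. Of 283 tested rows from the other RIKEN series known for testis clones, 215 (76.0%) were lower in SKO LZ, and of 765 tested rows with any further RIKEN name 183 (23.9%) were lower. In PreL the shares were 57.6% for the members, 32.8% and 3.50%, and in SPG 23.6%, 3.82% and 1.43%. The 1700 members were chosen with a limit on reads over all 17 libraries, and the other rows only with the limit of each comparison, so the shares are a description.

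**Figure D5:**
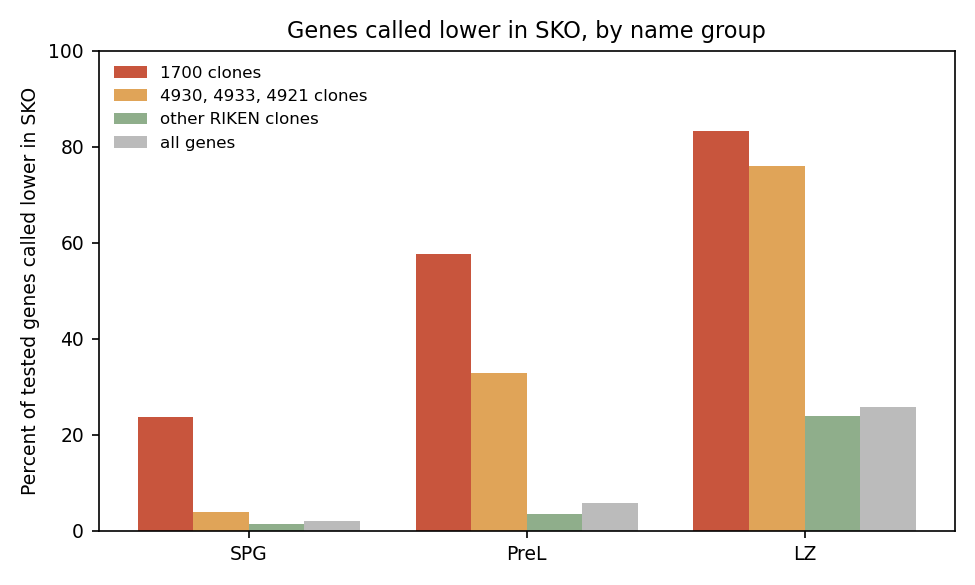
Percent of the tested genes called lower in SKO in SPG, PreL and LZ, for the 1700 members, for the other testis clone series, for the remaining RIKEN clones and for all genes tested. In each stage the 1700 members have the highest share, 23.6%, 57.6% and 83.3%, against 2.06%, 5.83% and 25.8% of all genes.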

How the data were processed

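RNA was measured in the 17 libraries by Smart-seq2. According to their methods, the authors mapped the reads to mm10 (the processing notes list mm9 too), counted unique reads per gene with HTSeq (0.11.2 in the submitters' processing notes) and deposited signal values, the counts times 1 calibration factor per library from ERCC spike-in and cell input. Values were whole multiples of 1 read (tolerance 0.01) in 100% of cases, which gave the recovered reads.

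Each comparison was scaled by size factors (median of ratios) and limited to genes averaging 10 recovered reads or more. limma 3.58.1 (R 4.3.3, with trend) was then run on the log2 of the scaled value plus 10, with Benjamini-Hochberg adjustment. limma was chosen because calibrated values are not counts. edgeR 4.0.16 and DESeq2 1.42.0 on recovered reads were alternatives, as were the calibrated values without rescaling, TMM, pseudocounts of 1 and 50, no filter, a mean of at least 50 reads, no fold threshold, 1 fit of all libraries, a replicate block and each library left out. The limma steps were tested on simulated data with 200 changed genes. Bounds use 3 reads per library and cover counting error only, since PCR reads without molecular identifiers are not independent molecules.

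Members, lists and tests were chosen with earlier results of these data known. Members named are the 6 most abundant, the largest called changes per comparison (mean of at least 100 reads, no overlap), the largest interaction terms, the 4 most abundant called in no stage, the 10 most abundant with a present symbol and the rows beside the limit. GENCODE matched 167 members by symbol and 78 by older symbols, and RefSeq held 249. The authors' own comparisons and proteins were not analysed here.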

Additional observations from a re-analysis of the deposited data

Results flagged for a closer look

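The members listed here stood out because the difference between SKO and WT was not the same in LZ as in PreL by the interaction term of limma. They were 113 members with a lower and 5 with a higher difference in LZ, of 251 tested, against 23.1% and 15.1% of 13530 genes. The limit on reads takes part in this count. Lower were 37 of the 54 members that reached it only through the WT LZ libraries, and 76 of the other 197 (38.6%). In edgeR and DESeq2 the members' share that was lower, 12.7% and 17.9%, was below that of all genes, 15.8% and 20.1%. Among members with a mean of at least 100 reads, the largest shifts downward were those of Cfap206 (1700003M02Rik), at -4.84 on the log2 scale (adjusted p = 0.00059), 1700028J19Rik, at -4.71 (adjusted p = 0.024), and Cfap299 (1700007G11Rik), at -4.60 (adjusted p = 0.00015), in limma. In LZ, Cfap206 was at 97.8 and 222 RPM in WT and at 0.172, 0.131 and 0.144 in SKO. 1700028J19Rik was at 215 and 544 RPM in WT LZ and at 1.38, 1.84 and 2.02 in SKO LZ, and in PreL at 26.3, 28.8 and 3.64 in WT and 1.42, 2.75 and 4.97 in SKO, where WT replicate 4 fell among the SKO values. Cfap299 was at 91.3 and 168 RPM in WT LZ and at 0.172, 1.45 and 0.866 in SKO LZ.

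The largest shifts upward were those of 1700034H15Rik, at 4.01 (adjusted p = 8.1e-07), 1700007J10Rik, at 3.84 (adjusted p = 1.8e-08), and 1700094D03Rik, at 3.32 (adjusted p = 2.4e-07), in limma. In PreL the difference between SKO and WT was -0.76, -0.17 and -0.02 for these 3, and in LZ it was 3.24, 3.65 and 3.28.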

How the results depend on the processing

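Replicate numbers were not used to pair samples in the main tests. Deviations of same-numbered libraries correlated between -0.19 and 0.13, and the labels tie no number to an animal or day. These few correlations cannot show whether libraries were paired. With a replicate block, members called higher numbered 6 in PreL, and from SPG to PreL 49 in the WT and 0 in the SKO course. It moved no other count of members by over 1.5 times. From PreL to LZ in WT no paired analysis was possible because the stages share 1 number.

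In LZ, the counts of members lower or higher in SKO stayed within 1.5 times under every alternative listed. In SPG, members lower numbered 9 at a mean of at least 50 reads and 71 in 1 fit of all libraries, and members higher 1 without a filter and 3 without the fold threshold. In PreL, members lower were 53 at the stricter limit, and members higher 20 on the calibrated values, 2 in edgeR, 3 in DESeq2, 3 without the fold threshold and 2 in 1 fit. From SPG to PreL in WT, members higher were 5 without a filter, 19 in edgeR, 49 in DESeq2 and 47 in 1 fit. From PreL to LZ in WT, the calibrated values gave 0 lower and 238 higher, and the log2 fold change of 1700094D03Rik turned to 0.22.

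From SPG to PreL in SKO, DESeq2 gave 2 lower and 9 higher, and members higher were 44 on the calibrated values, 5 with a pseudocount of 50, 1 without a filter and 13 in 1 fit. From PreL to LZ in SKO, members lower were 2 on the calibrated values, 3 at the stricter limit and 9 without the fold threshold, and members higher 42 and 7 under the first 2 of these. For the interaction, members lower were 192 on the calibrated values, 48 with a pseudocount of 1, 70 at the stricter limit, 32 in edgeR and 45 in DESeq2. In edgeR and DESeq2 the members' share, 12.7% and 17.9%, was below that of all genes, 15.8% and 20.1%, and with the pseudocount of 1 it was 19.1% against 18.6%. On the calibrated values the share was 76.5% against 48.6%, and at the stricter limit 49.6% against 25.9%. The summed ratio on the calibrated values was 0.835 in SPG and 1.21 in PreL. The causes were not tested.

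Leaving out 1 library gave 22 to 49 lower in SPG, 97 to 134 lower and 0 to 5 higher in PreL, 7 to 30 higher from SPG to PreL in WT, 4 to 7 lower and 43 to 139 higher from PreL to LZ in WT, 0 to 4 higher from SPG to PreL in SKO, 3 to 5 lower and 11 to 18 higher from PreL to LZ in SKO, and 44 to 118 lower in the interaction. Of 798 values of single named members under an alternative, 756 kept direction and side of the threshold, 37 lost the call, 2 gained one and 3 changed sign. Beside 1700094D03Rik these were 2 members not called in LZ, where leaving out 1 library gave -0.0475 (without WT LZ replicate 2) to 1.07 (without WT LZ replicate 3) for 1700013H16Rik and -0.33 to 0.0625 (without the same libraries) for Tex30 (1700029F09Rik). Members near 10 reads carry the widest counting error.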
